A study of Mus musculus with 29 samples.

Results

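The glycolysis and hypoxia response genes are a set of 36 named mouse genes that take up glucose, break it down to pyruvate, turn pyruvate into lactate or keep it from the mitochondria, carry lactate across the cell membrane, sense oxygen, or rise when oxygen is short. They were chosen by name, and the 36 names matched 37 of the 54532 genes in the count table, because Aldoa is the name of 2 neighbouring gene models. All 37 passed the filter on low counts and were tested among 18616 genes. Colon segments of 29 mice in 9 groups were measured by bulk RNA-seq, with 6 colitis models and 3 groups of untreated controls. Each model was set against its own controls, and the question was which genes of the set were higher or lower in inflamed colon and whether the models differed.

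TRUC mice (n = 4) were labelled Balb/C Tbx21-/- x Rag2-/-, a strain that develops colitis without treatment, and their controls were untreated Balb/C Rag2-/- mice (n = 3). DSS mice (n = 3) were labelled Balb/C and drank 3% dextran sulfate sodium for 5 days and were culled at day 10, after it had been withdrawn. DNBS mice (n = 3), also labelled Balb/C, received 3 mg of dinitrobenzene sulfonic acid in ethanol by the rectal route. IL10 mice (n = 4) were labelled Balb/C given an IL10 blocking antibody; the protocol in the labels gives 750 µg of anti-IL-10R and culling by week 4, while the study's methods describe Il10-/- mice, so what these mice received cannot be told from the sources. These 3 models shared 1 control group of untreated Balb/C mice (n = 3), called wild-type here. TCT mice (n = 3) were labelled C57BL/6 Rag1-/- recipients of naive CD4 T cells, with 500000 cells given and culling after 6 to 8 weeks, and aCD40 mice (n = 3) were labelled C57BL/6 Rag1-/- given 50 µg of an agonist anti-CD40 antibody and culled after 7 days. Both shared 3 untreated mice labelled C57BL/6 Rag1-/- as controls. Rag-deficient mice make no T or B cells of their own. The study's methods describe DSS and wild-type mice as C57BL/6, and the protocol in the labels names Rag2-/- recipients for TCT; the genotypes given here are those of the labels. Ages were not stated in the labels. The count columns of TRUC mice 4 and 5 were named otherwise than those of the other TRUC mice. The name for mouse 4 ends in 8W, which the labels do not explain.

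Glycolysis turns glucose into pyruvate in the cytosol. Cells that run short of oxygen, and activated immune and dividing cells even where oxygen is present, reduce pyruvate to lactate and export it. The transcription factor HIF-1 alpha is marked for destruction by prolyl hydroxylases that need oxygen, and when it is stable it binds short DNA elements with the core letters ACGTG or GCGTG in front of glycolytic genes and of genes for pH control, blood vessel growth and mitochondrial turnover. The colon surface is known for low oxygen even in health, and healthy colonocytes are known to burn butyrate, taken up partly through the transporter MCT1, rather than glucose.

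Library totals ranged from 10725564 to 14977094 counts. Levels are given as CPM, each gene's counts scaled to a common library size after TMM normalisation (edgeR), mouse by mouse; a count of 0 would allow at most 0.179 to 0.314 CPM (3 counts) in a library. The 10 colon epithelium markers summed to 9276 to 25902 CPM across the mice, so all libraries were rich in colon epithelial transcripts. The targeted genes did not check the labels in a simple way. Tbx21 had 26 to 52 counts in TRUC against 1 to 7 in the Rag2-/- controls, and Rag2 had 57 to 94 counts in TRUC and 15 to 25 in the Rag2-/- controls against 0 or 1 in wild-type mice, so the whole-gene count cannot show either deletion. The libraries labelled Rag1-/- control had 0 to 4 counts of Rag1 and 6 to 20 of Rag2, and the aCD40 libraries 0 to 2 and 48 to 99, whereas the TCT libraries had 20 to 33 counts of Rag1 and 0 of Rag2. Il10 had 61 to 111 counts in the IL10 mice and 1 to 4 in wild-type mice. The TCT libraries and the libraries labelled as their controls therefore differed in a way that the labels do not describe, and the TCT and aCD40 results are also given against the other untreated mice.

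Across the set, 23 genes were higher and 7 lower in IL10 mice, 19 higher and 3 lower in TRUC, 17 and 3 in aCD40, 16 and 4 in TCT, 12 and 4 in DSS, and 0 and 2 in DNBS, at an adjusted p under 0.05. In IL10 the second Aldoa gene model, of low counts, is among the 7, and Aldoa itself is among the 23. Hexokinase 2, the myeloid hexokinase Hk3, the glycolytic activator Pfkfb3, the lactate exporter Slc16a3, Hif1a, Egln3, Bnip3 and Adm passed the test as higher in all models but DNBS. Leaving out single mice lost the DSS calls of Slc16a3, Bnip3, Egln3 and Adm and the TCT call of Hif1a. It also lost the aCD40 calls of Hk3, Slc16a3, Pfkfb3, Hif1a and Adm. For Hif1a all DNBS mice lay above their controls too, without passing the test. The lactate and butyrate transporter Slc16a1 was lower in all 6, in DNBS and aCD40 with calls that some alternatives lost. Tpi1, the lower pathway enzymes Gapdh, Pgk1, Eno1 and Pkm, and Ldha were higher in TRUC, IL10, TCT and aCD40 and did not pass the test in DSS or DNBS. The aCD40 calls of Gapdh and Ldha were lost when single mice were left out. Unless another tool is named, every adjusted p in the text is a two-sided edgeR quasi-likelihood p adjusted over the 18616 genes tested (Benjamini-Hochberg), and fold changes are log2 of model over control with their SE.

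**Figure D1:**
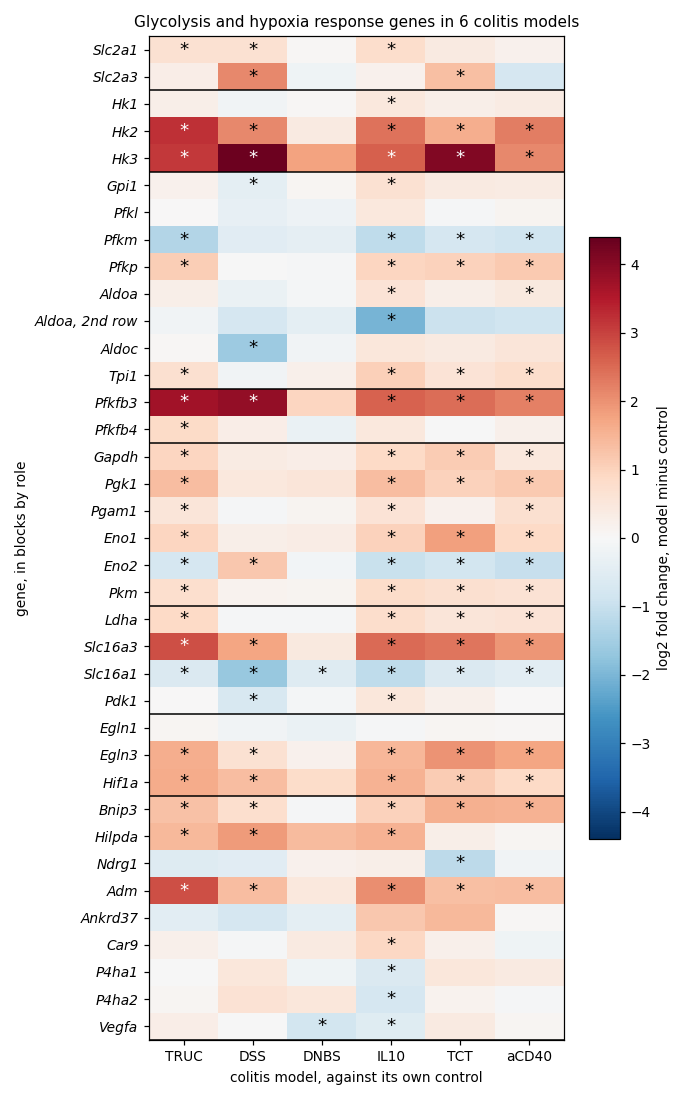
Log2 fold change of each of the 37 gene rows (vertical axis, in blocks by role) in each of the 6 models against its own control (horizontal axis), red for higher and blue for lower; a star marks an adjusted p under 0.05. Slc16a1 is blue with a star in all 6 columns, and the DNBS column holds 2 stars.

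The share of all genes tested that passed the same test differed between models. In TRUC, 22.4% of all genes were higher and 23.4% lower, and the median log2 fold change was 0.52 over the 37 rows against -0.03 over all genes. Of its 22 calls, 18 held whichever mouse was left out, and Slc2a1, Pfkfb4, Hilpda and Eno2 did not. In IL10, 27.2% of all genes were higher and 26.1% lower, with medians of 0.77 for the set and -0.01 for all genes. Of the 23 rises in IL10, 21 held whichever mouse was left out, and 4 of the 7 falls did; 4 genes were lower without wild-type control mouse 2. Without IL10 mouse 4 the median of the set was 0.58.

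In DSS, 17.7% of all genes were higher and 16.3% lower, and the medians were 0.15 for the set and 0.02 for all genes. Of the 12 rises in DSS, 6 held whichever mouse was left out, those of Slc2a3, Hk2, Hk3, Eno2, Pfkfb3 and Hif1a. The others depended on single mice: without DSS mouse 8 only these 6 were left, and without wild-type control mouse 4 there were 7. In DNBS, 3.95% of all genes were higher and 2.21% lower, with medians of 0.06 and 0.01. No member was higher there by edgeR; DESeq2 on the 2 groups called 3, and 5 members had a higher mean and an unadjusted edgeR p under 0.05. Without DNBS mouse 11, edgeR called 2 higher. No lower gene was left without DNBS mouse 14 or 16 or wild-type control mouse 1 or 2, and 1 was left without wild-type control mouse 4.

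In TCT, 16.1% of all genes were higher and 14% lower, with medians of 0.41 for the set and 0.00 for all genes. Of its 20 calls 16 held whichever mouse was left out, and 2 lower genes were left without TCT mouse 5 or Rag1-/- control mouse 3. In aCD40, 10.9% of all genes were higher and 10.7% lower, with medians of 0.40 and -0.03. Of its 20 calls 10 held: 9 genes were higher and 1 lower without aCD40 mouse 7, and 11 were higher without Rag1-/- control mouse 3. Each call that was lost is named with its values where its gene is described.

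Against the other untreated mice, the main pattern of both models held in part. By the labels these other controls were Balb/C mice, a different strain from that of both models. The wild-type mice also have T and B cells of their own, which Rag-deficient mice do not make. Calls gained or lost here therefore go with a change of strain as well as of control group. The part of strain or lymphocytes in them was not tested. TCT against the wild-type controls gave 14 genes higher and 2 lower, where 16.9% and 13.8% of all genes were called. Slc2a3 at 0.94 (adjusted p = 0.091), Eno2 at -0.03 (adjusted p = 0.946), Ldha at 0.31 (adjusted p = 0.12), Slc16a3 at 1.45 (adjusted p = 0.0537), Bnip3 at 0.54 (adjusted p = 0.128) and Ndrg1 at -0.51 (adjusted p = 0.35) no longer passed the test, and Hk1 at 0.42 (adjusted p = 0.0212) and Pgam1 at 0.40 (adjusted p = 0.016) now did. The largest move in TCT was that of Eno1, from 1.79 to 0.73 (adjusted p = 4.24e-04). aCD40 against the Rag2-/- controls gave 13 genes higher and 2 lower, where 12.4% and 11.8% of all genes were called. Aldoa at 0.16 (adjusted p = 0.317), Tpi1 at 0.42 (adjusted p = 0.0525), Pkm at 0.33 (adjusted p = 0.103), Bnip3 at 0.68 (adjusted p = 0.0662) and Eno2 at -0.66 (adjusted p = 0.0954) no longer passed. Hk2, Hk3, Pfkp, Pgk1, Eno1, Gapdh, Pfkfb3, Egln3, Hif1a and Adm stayed higher and Pfkm and Slc16a1 lower in both models against both sets of controls.

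The 250 bases before each start were searched on both strands for ACGTG and GCGTG, the spellings of the core of the hypoxia response element, which HIF-1 binds. RefSeq promoters (build GRCm38.p6) were found for 34 of the 36 genes, with 49 starts in all; Slc2a3 and Ndrg1 had no entry. Of these 49 promoters, 25 held ACGTG, 26 held GCGTG and 39, or 79.6%, held either. Among all 32851 promoters in the reference 38.6% held either, and among the 16218 promoters of genes tested here 51.6% did. The median share of C and G letters in the same 250 bases was 60.4% for the set, 52.4% for all promoters and 58.8% for those of genes tested. Where ACGTG and its reverse complement overlap, the letters read CACGTG, which is also the E-box that other factors bind. A match describes the letters and does not show binding.

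Shown are 5 of the genes with a core that passed the test in at least 5 models, taken in the order of the number of calls and then of size, because they include the largest rises and the fall shared by all models. Each stretch is read 5′ to 3′ on the strand of its gene, runs from 10 bases before the first core to 10 after the last or to the start, and has the cores in capitals on either strand.
Slc16a1: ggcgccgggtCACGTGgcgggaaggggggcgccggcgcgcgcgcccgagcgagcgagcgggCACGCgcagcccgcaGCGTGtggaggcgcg
Hk3: tacattttgaCACGTtgcctagttc
Pfkfb3: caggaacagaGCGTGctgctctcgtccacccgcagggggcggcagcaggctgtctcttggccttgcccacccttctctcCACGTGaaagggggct
Hk2: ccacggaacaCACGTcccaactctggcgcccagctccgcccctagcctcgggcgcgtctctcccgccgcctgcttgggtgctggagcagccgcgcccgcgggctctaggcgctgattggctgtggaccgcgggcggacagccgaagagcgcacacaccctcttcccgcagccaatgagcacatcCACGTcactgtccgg
Slc16a3: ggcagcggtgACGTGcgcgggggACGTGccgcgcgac
The stretch of Slc16a1 lies at chr3:104638454-104638544, plus strand, that of Hk3 at chr13:55021527-55021551, minus strand, that of Pfkfb3 at chr2:11502128-11502222, minus strand, that of Hk2 at chr6:82774492-82774690, minus strand and that of Slc16a3 at chr11:120949030-120949066, plus strand. Slc16a1, which was lower in every model, held 4 matches on the 2 strands together, 2 of which overlap in the same CACGTG. Hk2 and Slc16a3, which were higher in 5 models each, held 2 separate matches each. In Slc16a3 the printed stretch ends at the base before the start, so both of its cores lie close to it. Eno2 and Tpi1, called in 5 and 4 models, held neither spelling in this window.

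Glucose enters cells through facilitated transporters, and GLUT1 (Slc2a1), the common form, was higher in TRUC, DSS and IL10. Its log2 fold changes were 0.68 ± 0.217 in TRUC, 0.67 ± 0.230 in DSS and 0.77 ± 0.218 in IL10, with adjusted p of 0.00508 to 0.0268, and its values in DNBS, TCT and aCD40, from 0.04 to 0.39, did not pass. Slc2a1 lost its TRUC call without Rag2-/- control mouse 1 (0.57, adjusted p = 0.0757). Slc2a1 also lost its DSS call without DSS mouse 8 (0.19, adjusted p = 0.492), as it did without wild-type control mouse 1, 2 or 4. GLUT3 (Slc2a3), a high-affinity form typical of neurons and leukocytes, was low throughout. The wild-type colon contained Slc2a3 at 4.04, 4.73 and 7.05 CPM, while DSS mice had 10.7, 12.98 and 45.3, DNBS mice 4.30, 5.58 and 4.09 and IL10 mice 4.80, 7.06, 7.29 and 5.12 CPM. Levels of Slc2a3 were 2.92, 3.06 and 4.00 CPM in Rag2-/- controls, with 3.68, 4.36, 5.13 and 3.09 CPM in TRUC colon. In Rag1-/- controls Slc2a3 reached 2.59, 5.37 and 4.13 CPM, in TCT mice 14.7, 9.23 and 6.39 and in aCD40 mice 2.07, 1.54 and 3.51. All DSS mice lay above all wild-type mice, with mouse 8 far above the other 2, and all TCT mice lay above their controls, while the TRUC, DNBS, IL10 and aCD40 mice overlapped theirs. Slc2a3 rose by 4.35-fold in DSS and by 2.50-fold in TCT (log2 fold change 2.12 ± 0.425 in DSS and 1.32 ± 0.430 in TCT; adjusted p = 5.47e-04 and 0.0218). Slc2a3 lost its TCT call without TCT mouse 1 (0.95, adjusted p = 0.12), as it did without Rag1-/- control mouse 2 or 4. Per kilobase of exon, Slc2a3 stood at 0.0114 to 0.0196 of the Slc2a1 level in wild-type mice and at 0.0296 to 0.0528 in DSS mice.

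Hexokinase takes the first step of glycolysis by phosphorylating glucose, and its forms differed. Hk2 (chr6:82725025-82774454), the inducible form bound to mitochondria in growing and activated cells, had the larger rise of the well-expressed pair Hk1 and Hk2. Hk2 stood at 138, 119 and 175 CPM in the Rag2-/- controls and at 1313, 1448, 1376 and 1215 CPM in the TRUC mice. Hk2 in the wild-type controls was 136, 165 and 180.4 CPM, against 531, 491 and 1059 in the DSS mice, 111, 127 and 394 in the DNBS mice and 651, 1082, 774 and 896 in the IL10 mice. For Hk2, the Rag1-/- controls gave 152, 179 and 269 CPM, the TCT mice 695, 462 and 644 and the aCD40 mice 714, 1232 and 916. In every model but DNBS, all inflamed mice lay above all of their controls, and in DNBS mouse 16 alone did. Hk2 was 9.30-fold higher in TRUC, 5.30-fold in IL10, 4.77-fold in aCD40, 4.32-fold in DSS and 3.00-fold in TCT. These correspond to log2 fold changes of 3.22 ± 0.376 in TRUC, 2.40 ± 0.361 in IL10, 2.25 ± 0.371 in aCD40, 2.11 ± 0.369 in DSS and 1.58 ± 0.363 in TCT, with adjusted p of 1.09e-06 to 0.00176, against 0.39 ± 0.356 in DNBS (adjusted p = 0.524).

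Hk1, the housekeeping form, was higher in IL10 alone (0.46 ± 0.127, adjusted p = 0.00385) and ranged from -0.14 to 0.35 in the other 5 comparisons. Per kilobase of exon, Hk2 stood at 0.771 to 0.973 times the Hk1 level in wild-type, 0.519 to 0.824 in Rag2-/- and 0.751 to 1.23 in Rag1-/- controls. The same ratio was 4.53 to 5.72 in TRUC, 2.54 to 5.95 in DSS, 2.71 to 3.87 in IL10, 1.59 to 2.88 in TCT and 3.03 to 4.05 in aCD40 mice, and 0.622 to 1.73 in DNBS mice. On this scale Hk2 stood above Hk1 in every mouse of those 5 models, while at most 1 mouse of each control group and of the DNBS group was above 1. The length counts all annotated exons, 8532 bases for Hk1 and 5969 for Hk2, so the position relative to 1 depends on it. In TCT mouse 3, for example, Hk2 was 462 CPM and Hk1 415.5 CPM.

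Hk3, a form found mainly in neutrophils and monocytes, was low in uninflamed colon. Hk3 measured 1.38, 1.77 and 1.03 CPM in the Rag1-/- controls, 21.1, 15.3 and 35.2 in TCT and 5.07, 10.6 and 2.80 in aCD40 mice. The TRUC mice had Hk3 at 8.25, 20.2, 9.61 and 4.72 CPM and their Rag2-/- controls at 1.24, 0.765 and 1.66 CPM. Wild-type mice carried Hk3 at 2.44, 2.80 and 2.87 CPM, compared with 18.9, 16.9 and 125 in DSS, 5.79, 7.13 and 14.7 in DNBS and 13.6, 14.6, 22.6 and 16.2 in IL10 mice. Every inflamed mouse in all 6 models lay above every one of its controls, and DSS mouse 8 was far above the rest. Hk3 rose in TRUC, DSS, IL10, TCT and aCD40, with log2 fold changes of 3.11 ± 0.702 in TRUC, 4.31 ± 0.684 in DSS, 2.63 ± 0.638 in IL10, 4.08 ± 0.718 in TCT and 2.12 ± 0.721 in aCD40 (adjusted p of 6.04e-05 to 0.0376), and in DNBS the value was 1.76 ± 0.657 (adjusted p = 0.103). Hk3 lost its aCD40 call without aCD40 mouse 7 (1.47, adjusted p = 0.245), as it did without aCD40 mouse 6 or Rag1-/- control mouse 2, 3 or 4. The 10 neutrophil markers, which include S100a8 and Cxcr2, summed to 132 to 146 CPM in wild-type mice, 528 to 2783 in DSS mice, 201 to 316 in DNBS mice and 268 to 1214 in IL10 mice. They summed to 212 to 341 CPM in Rag2-/- controls and 1694 to 2409 in TRUC, and to 152 to 294 in Rag1-/- controls, 342 to 618 in TCT and 652 to 1009.7 in aCD40 mice. Of the 10, 9 were higher in DSS, 9 in IL10, 8 in TRUC, 7 in TCT, 6 in DNBS and 6 in aCD40, and none was lower. DSS mouse 8 had the highest neutrophil sum of all mice, 2783 CPM, and the highest macrophage marker sum, 3285 CPM. In bulk tissue a change in the number of cells of a type and a change in RNA per cell cannot be told apart, and the part of myeloid cells in these rises was not tested.

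**Figure D2:**
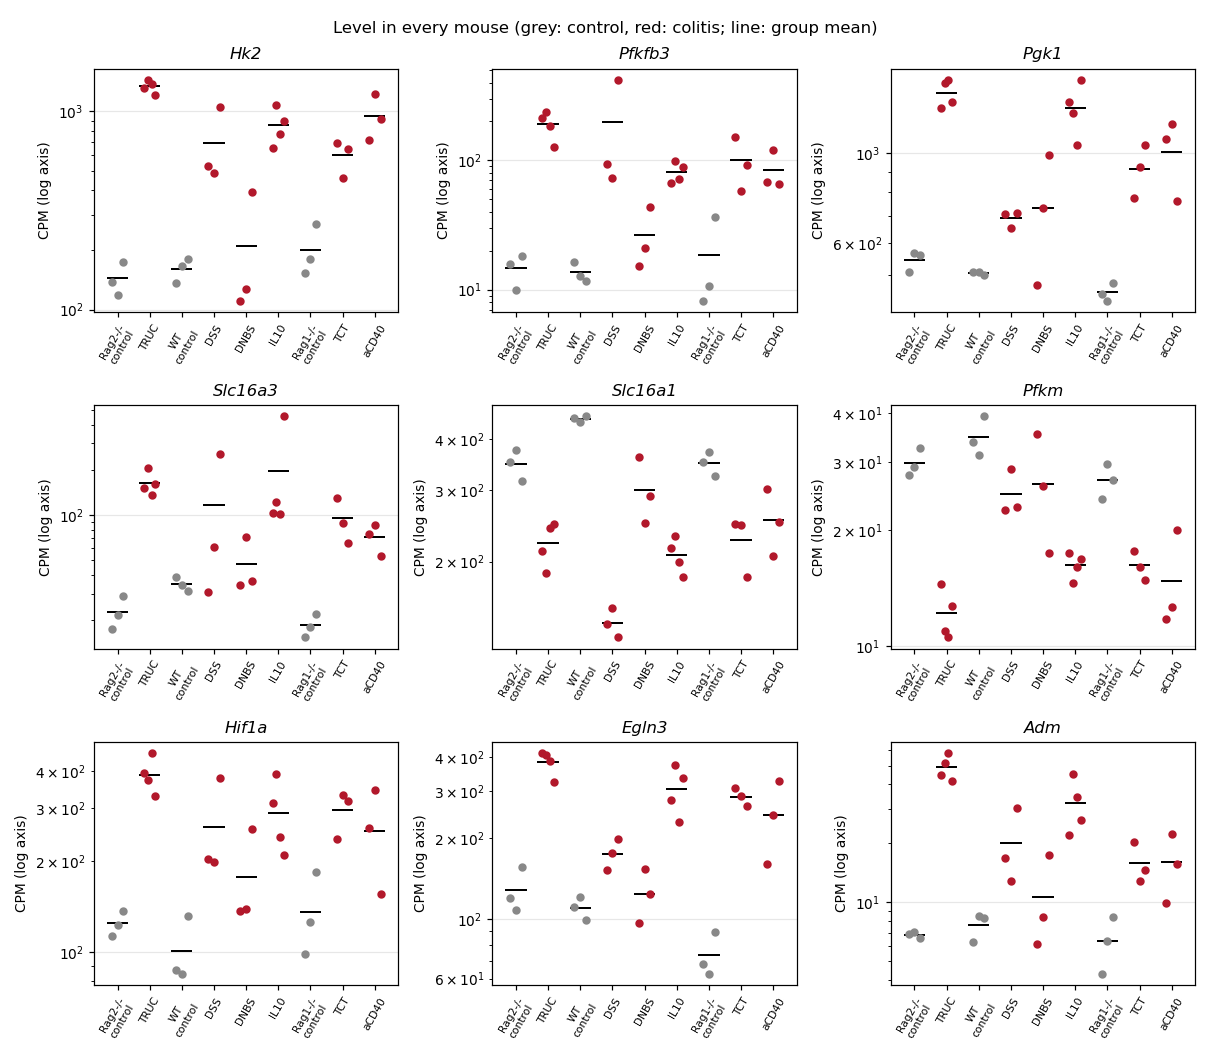
CPM on a log axis of 9 genes in every mouse, grey for the 3 control groups and red for the 6 models on the horizontal axis, with a line at each group mean. All red points of Hk2, Slc16a3 and Egln3 in TRUC, IL10, TCT and aCD40 lie above their controls, and all red points of Slc16a1 lie below theirs.

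Between glucose 6-phosphate and the trioses, the phosphofructokinase isozymes moved in opposite directions. Phosphofructokinase commits sugar to glycolysis; Pfkp is the platelet form, Pfkm the muscle form and Pfkl the liver form. Pfkp stood at 299.9, 308 and 307 CPM in the Rag2-/- controls and at 596, 697, 675 and 616 CPM in the TRUC mice. Pfkp in the wild-type controls was 344, 329.7 and 347 CPM, against 301, 314 and 404 in the DSS mice, 279, 276 and 420.5 in the DNBS mice and 542, 586, 554 and 909 in the IL10 mice. For Pfkp, the Rag1-/- controls gave 244, 215 and 259 CPM, the TCT mice 458, 459 and 535 and the aCD40 mice 517, 602 and 476. The TRUC, IL10, TCT and aCD40 mice all lay above their controls, and the DSS and DNBS mice overlapped theirs. Pfkp rose by 1.08 ± 0.165 in TRUC, 0.93 ± 0.164 in IL10, 1.02 ± 0.173 in TCT and 1.15 ± 0.174 in aCD40 (adjusted p of 2.31e-05 to 9.96e-05), with 0.00 ± 0.172 in DSS and -0.07 ± 0.172 in DNBS.

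At 14.5, 10.9, 10.5 and 12.7 CPM in TRUC mice, Pfkm compared with 27.8, 29.1 and 32.5 CPM in their Rag2-/- controls. Among Balb/C mice, Pfkm was at 33.8, 31.2 and 39.3 CPM in wild-type controls, 22.5, 28.7 and 22.9 after DSS, 35.3, 26.04 and 17.4 after DNBS and 17.4, 14.5, 16.03 and 16.8 in the IL10 group. Mice labelled Rag1-/- had Pfkm at 24.1, 29.6 and 26.9 CPM untreated, 17.6, 16.1 and 14.8 after T cell transfer and 11.7, 12.6 and 19.9 after anti-CD40. In the same 4 models all mice lay below their controls for Pfkm, and so did the DSS mice. Pfkm fell, with log2 fold changes of -1.29 ± 0.188 in TRUC, -1.10 ± 0.187 in IL10, -0.73 ± 0.203 in TCT and -0.86 ± 0.203 in aCD40 (adjusted p of 1.45e-05 to 0.0079), and the DSS value of -0.49 missed the threshold (adjusted p = 0.057). Pfkl was called in no comparison and ranged from -0.36 to 0.48. Per kilobase, Pfkp was 0.460 to 0.622 of the Pfkl level in Rag2-/- controls and 1.04 to 1.33 in TRUC, while Pfkm was 0.196 to 0.231 of it in those controls and 0.0718 to 0.104 in TRUC. The length counts all annotated exons, 13401 bases for Pfkp and 6675 for Pfkl. In CPM, Pfkl was 240, 258 and 332 in these controls, near Pfkp, and 278, 305, 253 and 294 in TRUC. Whether Pfkp lay below or above Pfkl thus depends on the lengths, and the change of the ratio does not. The 8 smooth muscle markers summed to 6391 to 7003 CPM in Rag2-/- controls and 3079 to 4549 in TRUC, and to 6886 to 8470.4 in wild-type and 2756 to 5168 in IL10 mice, with 4 and 7 of them lower. In TCT and aCD40 none of the 8 was called, at 3995 to 5163 and 2901 to 7291 CPM against 4346 to 5209 in their controls, while Pfkm was lower in both. Skeletal muscle markers summed to 8.92 to 94.8 CPM over all mice. The part of muscle in the fall of Pfkm was not tested.

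Of the other enzymes of the upper pathway, glucose-6-phosphate isomerase (Gpi1) was called in opposite directions. At 499, 557, 523 and 561 CPM in TRUC mice, Gpi1 compared with 479, 477 and 469 CPM in their Rag2-/- controls. Among Balb/C mice, Gpi1 was at 457, 478 and 518 CPM in wild-type controls, 349, 366 and 359 after DSS, 476, 559 and 492 after DNBS and 582, 612, 729 and 1151 in the IL10 group. Mice labelled Rag1-/- had Gpi1 at 445, 405 and 388 CPM untreated, 571, 575 and 479.5 after T cell transfer and 526, 541 and 528 after anti-CD40. All DSS mice lay below and all IL10 mice above the wild-type controls, and IL10 mouse 4 stood far above the other 3. Gpi1 fell in DSS (-0.44 ± 0.160, adjusted p = 0.0372) and rose in IL10 (0.66 ± 0.151, adjusted p = 8.54e-04); a share of 15.8% of its 50-base windows also occurs in other transcripts. Gpi1 lost its DSS call without wild-type control mouse 4 (-0.39, adjusted p = 0.114), as it did without wild-type control mouse 1 or 2 or DSS mouse 5, 6 or 8. Aldolase A (Aldoa), the main aldolase here, was higher in IL10 (0.59 ± 0.109, adjusted p = 1.26e-04) and aCD40 (0.41 ± 0.116, adjusted p = 0.0134). Aldoa lost its aCD40 call without Rag1-/- control mouse 3 (0.35, adjusted p = 0.0703), as it did without aCD40 mouse 7. The second gene model of that name, ENSMUSG00000114515, lies just upstream at chr7:126800790-126809108 and had at most 47 counts; it was lower in IL10 (-2.05 ± 0.400, adjusted p = 1.96e-04). Aldolase C (Aldoc), the brain form, was lower in DSS, at 12.01, 15.6 and 7.03 CPM against 38.002, 28.95 and 38.9 in wild-type mice (-1.60 ± 0.246, adjusted p = 4.34e-05), with no overlap, and was not called elsewhere.

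Triosephosphate isomerase (Tpi1), which interconverts the trioses, opened a run of enzymes that rose in TRUC, IL10, TCT and aCD40. Tpi1 stood at 753, 848 and 771 CPM in the Rag2-/- controls and at 1168, 1377, 1398 and 1272 CPM in the TRUC mice. Tpi1 in the wild-type controls was 644, 641 and 725 CPM, against 633, 650.1 and 531 in the DSS mice, 634, 742 and 973 in the DNBS mice and 1264, 1376, 1165 and 1779 in the IL10 mice. For Tpi1, the Rag1-/- controls gave 635, 583 and 652 CPM, the TCT mice 897, 919 and 1001 and the aCD40 mice 1124, 1206 and 837. All mice of these 4 models lay above their controls, and DSS and DNBS mice overlapped theirs. The log2 fold changes of Tpi1 were 0.72 ± 0.147 in TRUC, 1.06 ± 0.149 in IL10, 0.59 ± 0.156 in TCT and 0.76 ± 0.156 in aCD40 (adjusted p of 6.07e-06 to 0.00541), with -0.15 ± 0.155 in DSS and 0.22 ± 0.155 in DNBS. Colon epithelium markers summed to 14991.5 to 16179.6 CPM in Rag2-/- controls and 18260 to 19859 in TRUC. Their sum was 11850 to 14035.5 CPM in wild-type, 9276 to 11388 in DSS and 12691 to 16573 in DNBS mice. It was 18599.6 to 25902 CPM in IL10 mice. Rag1-/- controls had 13005 to 14378 CPM, TCT mice 15478 to 17383 and aCD40 mice 16611 to 18179.7. The part of epithelium in the rises of these enzymes was not tested.

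Pfkfb3 (chr2:11471433-11554077) makes fructose 2,6-bisphosphate, the strongest activator of phosphofructokinase, and had the largest rise of the set in TRUC. The wild-type colon contained Pfkfb3 at 16.4, 12.8 and 11.6 CPM, while DSS mice had 94.4, 73.4 and 421, DNBS mice 15.1, 20.9 and 43.6 and IL10 mice 66.3, 99.6, 71.9 and 89.02 CPM. Levels of Pfkfb3 were 15.8, 9.87 and 18.3 CPM in Rag2-/- controls, with 212, 238, 186 and 127 CPM in TRUC colon. In Rag1-/- controls Pfkfb3 reached 8.18, 10.7 and 36.3 CPM, in TCT mice 152, 57.8 and 91.8 and in aCD40 mice 68.1, 120.0 and 65.5. In TRUC, DSS, IL10, TCT and aCD40 all inflamed mice lay above all of their controls, although Rag1-/- control mouse 4, at 36.3 CPM, was well above the other 2, and DNBS mice overlapped the controls. Pfkfb3 was 14.4-fold higher in DSS, 13.01-fold in TRUC, 6.00-fold in IL10, 5.48-fold in TCT and 4.61-fold in aCD40. The log2 fold changes were 3.85 ± 0.608 in DSS, 3.70 ± 0.590 in TRUC, 2.59 ± 0.564 in IL10, 2.46 ± 0.576 in TCT and 2.20 ± 0.572 in aCD40, with adjusted p of 3.77e-05 to 0.00833, and DNBS gave 0.96 ± 0.568 (adjusted p = 0.305). Pfkfb3 lost its aCD40 call without Rag1-/- control mouse 3 (1.93, adjusted p = 0.0544), as it did without aCD40 mouse 7. Pfkfb4, a second form of the enzyme, was higher in TRUC alone (0.85 ± 0.271, adjusted p = 0.0131), with -0.28 to 0.46 in the other comparisons. Pfkfb4 lost its TRUC call without Rag2-/- control mouse 1 (0.80, adjusted p = 0.0517).

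The enzymes from glyceraldehyde 3-phosphate to pyruvate yield ATP and NADH. Gapdh, which is often used to scale expression, was itself higher in the 4 models. Gapdh measured 66.5, 69.2 and 68.1 CPM in the Rag1-/- controls, 149, 142 and 151 in TCT and 105, 105 and 73.3 in aCD40 mice. The TRUC mice had Gapdh at 110.2, 126, 132 and 112 CPM and their Rag2-/- controls at 60.4, 62.1 and 62.04 CPM. Wild-type mice carried Gapdh at 82.2, 92.6 and 99.02 CPM, compared with 106, 123 and 126 in DSS, 91.96, 114 and 130.1 in DNBS and 138, 159.6, 152 and 224 in IL10 mice. Every mouse of TRUC, IL10, TCT and aCD40 lay above its controls, and so did the DSS mice, while DNBS mice overlapped. The log2 fold changes of Gapdh were 0.96 ± 0.146 in TRUC, 0.88 ± 0.145 in IL10, 1.12 ± 0.154 in TCT and 0.47 ± 0.153 in aCD40 (adjusted p of 6.03e-06 to 0.0301), with 0.37 ± 0.152 in DSS (adjusted p = 0.0611). Gapdh lost its aCD40 call without aCD40 mouse 7 (0.39, adjusted p = 0.152), as it did without aCD40 mouse 6 or Rag1-/- control mouse 2, 3 or 4. A share of 25.1% of its 50-base windows also occurs in other transcripts, so its counts were in part uncertain; the same holds for Pgk1 (53.9%), Pgam1 (36.2%) and Pkm (25.8%).

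Phosphoglycerate kinase (Pgk1) makes the first ATP of the pathway and had the largest rise among these enzymes in TRUC, IL10 and aCD40. Pgk1 stood at 509, 566 and 560.3 CPM in the Rag2-/- controls and at 1287, 1487, 1515 and 1335 CPM in the TRUC mice. Pgk1 in the wild-type controls was 509, 510.2 and 501 CPM, against 709, 654 and 713 in the DSS mice, 473, 733 and 991 in the DNBS mice and 1331, 1255, 1047 and 1514 in the IL10 mice. For Pgk1, the Rag1-/- controls gave 450.5, 433 and 479 CPM, the TCT mice 774, 921 and 1048 and the aCD40 mice 1084, 1178 and 761. All DSS mice and 2 of the 3 DNBS mice also lay above all wild-type controls. Pgk1 rose by 1.37 ± 0.179 in TRUC, 1.34 ± 0.179 in IL10, 1.01 ± 0.186 in TCT and 1.15 ± 0.187 in aCD40 (adjusted p of 3.40e-06 to 2.12e-04), and the values of 0.45 ± 0.185 in DSS and 0.53 ± 0.185 in DNBS did not pass (adjusted p = 0.0626 and 0.0821). Phosphoglycerate mutase (Pgam1) was higher in TRUC, IL10 and aCD40 (0.52 ± 0.114 in TRUC, 0.60 ± 0.115 in IL10 and 0.71 ± 0.122 in aCD40, adjusted p of 1.61e-04 to 8.97e-04) and stood at 0.17 in TCT.

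Enolase, the next step, had forms that moved in opposite directions. At 848, 1008, 973 and 861 CPM in TRUC mice, Eno1 compared with 477, 496 and 480.2 CPM in their Rag2-/- controls. Among Balb/C mice, Eno1 was at 781, 795 and 803 CPM in wild-type controls, 851, 933 and 1093 after DSS, 812, 1066 and 1107 after DNBS and 1385, 1537, 1497 and 2041 in the IL10 group. Mice labelled Rag1-/- had Eno1 at 389, 362 and 391 CPM untreated, 1348, 1338 and 1271 after T cell transfer and 726, 776 and 571 after anti-CD40. All inflamed mice in all 6 models lay above their controls for Eno1, the common form. It rose by 0.93 ± 0.131 in TRUC, 1.03 ± 0.132 in IL10, 1.79 ± 0.142 in TCT and 0.86 ± 0.138 in aCD40 (adjusted p of 1.12e-09 to 1.87e-04), and not past the threshold in DSS and DNBS (0.27 and 0.33). The untreated groups themselves stood apart, and the TCT mice were nearer to the wild-type controls than to the libraries labelled as their own. Eno1 has a near-identical copy, Eno1b, and reads from both cannot always be told apart.

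Gamma-enolase (Eno2), the neuronal form, was lower in the same 4 models and higher in DSS. Eno2 stood at 9.56, 9.87 and 11.5 CPM in the Rag2-/- controls and at 7.22, 7.11, 4.21 and 6.35 CPM in the TRUC mice. Eno2 in the wild-type controls was 8.22, 6.92 and 8.03 CPM, against 12.9, 19.9 and 19.98 in the DSS mice, 7.64, 8.60 and 4.94 in the DNBS mice and 2.86, 4.99, 3.77 and 4.18 in the IL10 mice. For Eno2, the Rag1-/- controls gave 11.7, 13.7 and 13.8 CPM, the TCT mice 10.04, 6.49 and 6.11 and the aCD40 mice 4.51, 4.46 and 10.4. All TRUC, IL10, TCT and aCD40 mice lay below their controls, all DSS mice lay above theirs, and DNBS mice overlapped. Eno2 fell, with log2 fold changes of -0.72 ± 0.268 in TRUC, -0.97 ± 0.278 in IL10, -0.79 ± 0.287 in TCT and -1.01 ± 0.289 in aCD40 (adjusted p of 0.00541 to 0.0388), and rose by 1.19 ± 0.285 in DSS (adjusted p = 0.00262). Eno2 lost its TRUC call without TRUC mouse 4 (-0.58, adjusted p = 0.103), as it did without Rag2-/- control mouse 2 or 4. Eno2 also lost its TCT call without TCT mouse 5 (-0.66, adjusted p = 0.155), as it did without Rag1-/- control mouse 3 or 4 or TCT mouse 3. Eno2 also lost its aCD40 call without aCD40 mouse 7 (-0.80, adjusted p = 0.108), as it did without aCD40 mouse 6. Of the 10 neuron and glia markers, among them Uchl1 and Prph, 9 were lower in TRUC, 8 in IL10, 4 in aCD40 and 1 in TCT, and 7 were higher in DSS. Their sum was 97.9 to 105 CPM in wild-type mice, 139 to 281 in DSS mice, 70.1 to 101 in DNBS mice and 27.95 to 61.3 in IL10. It was 80.3 to 86.5 CPM in Rag2-/- controls, 23.3 to 47.2 in TRUC, 88.5 to 102 in Rag1-/- controls, 49.5 to 74.3 in TCT and 36.7 to 103 in aCD40. aCD40 mouse 8, with the highest Eno2 of its group, also had the highest marker sum, 103 CPM. These marker values moved beside Eno2, and their part in its change was not tested.

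**Figure D3:**
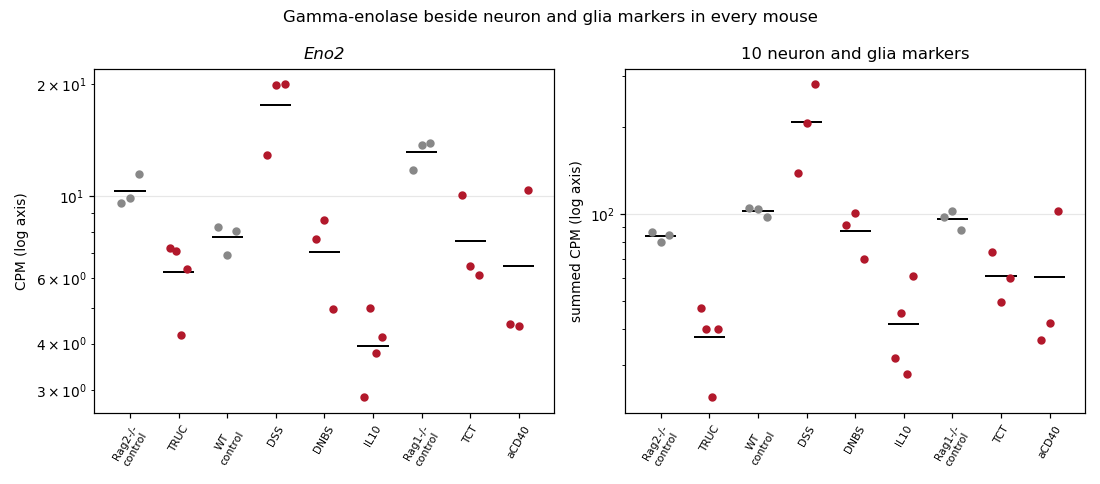
Eno2 in CPM and the summed CPM of 10 neuron and glia markers, both on a log axis, in every mouse of the 9 groups, grey for controls and red for models, with a line at each group mean. Both group means are highest in DSS, and both values are below those of all of their own controls in every TRUC and IL10 mouse.

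Pyruvate kinase M (Pkm) ends the pathway. Pkm measured 992, 1021 and 1024 CPM in the Rag1-/- controls, 1712, 1604 and 1656 in TCT and 1657, 1895 and 1208 in aCD40 mice. The TRUC mice had Pkm at 1911, 2254, 2159 and 1999.8 CPM and their Rag2-/- controls at 1235, 1333 and 1209 CPM. Wild-type mice carried Pkm at 1158, 1127 and 1234 CPM, compared with 1119, 1240.1 and 1550.5 in DSS, 1101, 1256 and 1476 in DNBS and 1836, 2153, 1741 and 2473 in IL10 mice. All mice of TRUC, IL10, TCT and aCD40 lay above their controls, with the smallest gap at aCD40 mouse 8. The log2 fold changes of Pkm were 0.73 ± 0.141 in TRUC, 0.81 ± 0.142 in IL10, 0.71 ± 0.149 in TCT and 0.65 ± 0.149 in aCD40 (adjusted p of 6.85e-05 to 0.0037), with 0.15 ± 0.148 in DSS and 0.12 ± 0.148 in DNBS. The splice forms M1 and M2 are not separated in gene counts.

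Lactate dehydrogenase A (Ldha) turns pyruvate into lactate. Ldha stood at 1071, 1159 and 1103 CPM in the Rag2-/- controls and at 1845, 2046, 2163 and 2019 CPM in the TRUC mice. Ldha in the wild-type controls was 1199, 1174 and 1245 CPM, against 1147, 1239 and 1075 in the DSS mice, 949, 1129 and 1388 in the DNBS mice and 1729, 1909, 1849 and 2776 in the IL10 mice. For Ldha, the Rag1-/- controls gave 1093, 935 and 1064 CPM, the TCT mice 1476, 1500.0 and 1503 and the aCD40 mice 1645, 1782 and 1290.4. Its pattern was that of Pkm: no overlap in TRUC, IL10, TCT and aCD40, and overlap in DSS and DNBS. Ldha rose by 0.86 ± 0.143 in TRUC, 0.78 ± 0.142 in IL10, 0.53 ± 0.150 in TCT and 0.61 ± 0.150 in aCD40 (adjusted p of 5.52e-05 to 0.0085), and DSS and DNBS both stood at -0.06. Ldha lost its aCD40 call without aCD40 mouse 7 (0.51, adjusted p = 0.0507).

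The lactate transporters moved in opposite directions. MCT4 (Slc16a3, chr11:120948480-120960868) exports lactate from glycolytic cells. The wild-type colon contained Slc16a3 at 38.6, 34.4 and 31.3 CPM, while DSS mice had 30.9, 61.02 and 256, DNBS mice 34.4, 71.1 and 36.3 and IL10 mice 103, 123, 102 and 455 CPM. Levels of Slc16a3 were 17.3, 21.5 and 28.9 CPM in Rag2-/- controls, with 151, 205, 137 and 161 CPM in TRUC colon. In Rag1-/- controls Slc16a3 reached 15.3, 18.1 and 21.8 CPM, in TCT mice 131, 88.8 and 65.4 and in aCD40 mice 74.5, 85.9 and 53.4. All mice of TRUC, IL10, TCT and aCD40 lay above their controls, whereas in DSS mouse 5 lay at the level of the controls and mouse 8 far above. In IL10, mouse 4 stood far above the other 3. Slc16a3 rose by 2.85 ± 0.576 in TRUC, 1.73 ± 0.568 in DSS, 2.49 ± 0.563 in IL10, 2.37 ± 0.588 in TCT and 1.95 ± 0.582 in aCD40 (adjusted p of 3.91e-04 to 0.021), and stood at 0.44 ± 0.559 in DNBS. Slc16a3 lost its DSS call without DSS mouse 8 (0.40, adjusted p = 0.592), as it did without wild-type control mouse 1, 2 or 4. Slc16a3 also lost its aCD40 call without aCD40 mouse 7 (1.80, adjusted p = 0.0752), as it did without Rag1-/- control mouse 2 or 3.

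MCT1 (Slc16a1, chr3:104638668-104658462) carries lactate and short-chain fatty acids such as butyrate, and was the 1 member called in all 6 models. Slc16a1 measured 350.3, 372 and 325 CPM in the Rag1-/- controls, 247, 246 and 183 in TCT and 301, 207 and 249.8 in aCD40 mice. The TRUC mice had Slc16a1 at 212, 187, 242 and 247 CPM and their Rag2-/- controls at 351, 376 and 316 CPM. Wild-type mice carried Slc16a1 at 449, 439 and 455 CPM, compared with 141, 154 and 130.4 in DSS, 362, 249 and 289 in DNBS and 217, 231, 200.0 and 183 in IL10 mice. Every inflamed mouse lay below every one of its controls in all 6 comparisons, and DSS mice were lowest. The log2 fold changes were -0.65 ± 0.137 in TRUC, -1.66 ± 0.152 in DSS, -0.58 ± 0.148 in DNBS, -1.11 ± 0.137 in IL10, -0.63 ± 0.148 in TCT and -0.47 ± 0.148 in aCD40, with adjusted p of 2.54e-07 to 0.0268, so levels were 1.38-fold to 3.15-fold lower. Slc16a1 lost its DNBS call without DNBS mouse 14 (-0.45, adjusted p = 0.136), as it did without wild-type control mouse 1, 2 or 4 or DNBS mouse 16. Slc16a1 also lost its aCD40 call without aCD40 mouse 7 (-0.34, adjusted p = 0.179), as it did without aCD40 mouse 8 or Rag1-/- control mouse 2 or 3. Its aCD40 call was also lost with no filter on low counts and its DNBS call with those 2 groups fitted alone. The 10 absorptive colonocyte markers did not move together: Slc26a3 was lower in 3 models and Car1 in 2, while Aqp4 was higher in 5. Their higher and lower calls were 1 and 7 in TRUC, 2 and 1 in DSS, 1 and 0 in DNBS. In IL10 they were 2 and 2, in TCT 0 and 5 and in aCD40 1 and 2. The markers summed to 4813 to 5637 CPM in wild-type mice, 2409 to 4981 in DSS mice, 2864 to 3398 in DNBS mice and 2811 to 7808 in IL10. They summed to 5575 to 6689.7 CPM in Rag2-/- controls, 2517 to 3361 in TRUC, 5209.6 to 5847 in Rag1-/- controls, 2477 to 3682 in TCT and 4342 to 4782 in aCD40. In IL10 mice 1, 2, 3 and 4 the sums were 2811, 4225, 6482 and 7808 CPM, so 2 mice lay below and 2 above all wild-type mice. The part of absorptive colonocytes in the fall of Slc16a1 was not tested.

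Per kilobase of exon, Slc16a3 stood at 0.0573 to 0.0716 of the Slc16a1 level in wild-type, 0.0412 to 0.0761 in Rag2-/- and 0.0364 to 0.0560 in Rag1-/- controls. The ratio was 0.469 to 0.912 in TRUC, 0.397 to 2.07 in IL10, 0.183 to 1.63 in DSS, 0.297 to 0.440 in TCT, 0.178 to 0.346 in aCD40 and 0.0792 to 0.238 in DNBS mice. It was above the range of the own controls in every inflamed mouse, and above 1 in DSS mouse 8 and IL10 mouse 4.

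**Figure D4:**
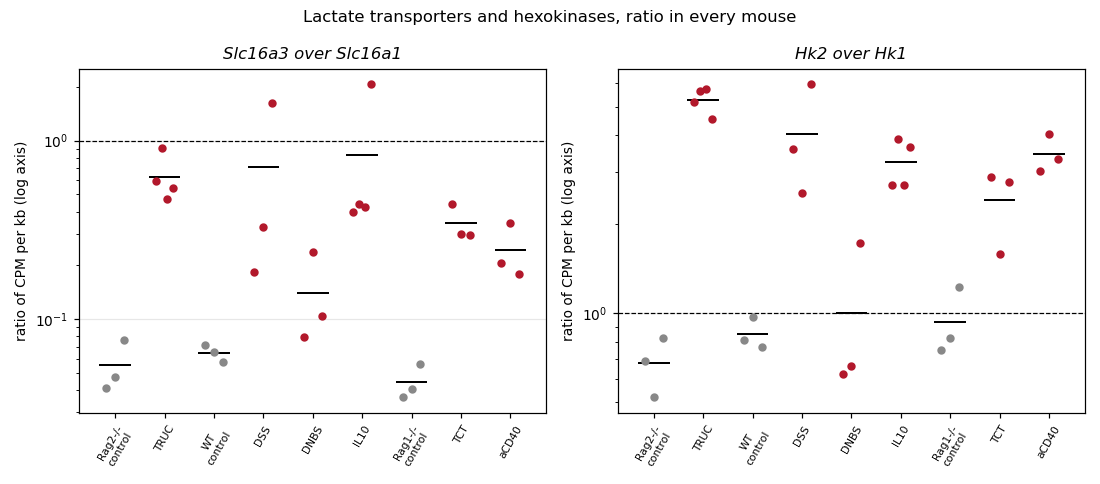
Ratio of Slc16a3 to Slc16a1 and of Hk2 to Hk1, each as CPM per kilobase of exon on a log axis, in every mouse of the 9 groups, grey for controls and red for models, with a line at each group mean and a dashed line at 1. The Slc16a3 to Slc16a1 ratio lies above the own controls in every red point, and the Hk2 to Hk1 ratio is above 1 in all mice of TRUC, DSS, IL10, TCT and aCD40.

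Pyruvate dehydrogenase kinase 1 (Pdk1) blocks the entry of pyruvate into mitochondria. Pdk1 stood at 98.7, 99.3 and 107 CPM in the Rag2-/- controls and at 94.5, 105, 105 and 108 CPM in the TRUC mice. Pdk1 in the wild-type controls was 115, 117 and 105 CPM, against 77.2, 83.5 and 46.7 in the DSS mice, 97.99, 109.5 and 109 in the DNBS mice and 149, 136, 128 and 215 in the IL10 mice. For Pdk1, the Rag1-/- controls gave 94.4, 86.7 and 73.5 CPM, the TCT mice 93.1, 109.8 and 94.5 and the aCD40 mice 99.8, 80.2 and 76.6. All DSS mice lay below and all IL10 mice above the wild-type controls, and the other models overlapped theirs. Pdk1 fell in DSS (-0.70 ± 0.176, adjusted p = 0.00373) and rose in IL10 (0.48 ± 0.165, adjusted p = 0.0167), where mouse 4 was the highest. Pdk1 lost its IL10 call without IL10 mouse 4 (0.29, adjusted p = 0.111), as it did without wild-type control mouse 4.

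Hif1a encodes the oxygen-labile subunit of HIF-1. The wild-type colon contained Hif1a at 87.5, 84.5 and 131 CPM, while DSS mice had 203, 199 and 380.0, DNBS mice 137, 139 and 257 and IL10 mice 313, 391, 242 and 210.4 CPM. Levels of Hif1a were 113, 123 and 137 CPM in Rag2-/- controls, with 394, 373, 459 and 329 CPM in TRUC colon. In Rag1-/- controls Hif1a reached 98.4, 126 and 185 CPM, in TCT mice 237, 333 and 318 and in aCD40 mice 258, 345 and 156. TRUC, DSS, DNBS, IL10 and TCT mice all lay above their controls, and in aCD40 mouse 8 fell below Rag1-/- control mouse 4. Hif1a rose by 1.64 ± 0.301 in TRUC, 1.37 ± 0.312 in DSS, 1.52 ± 0.300 in IL10, 1.12 ± 0.310 in TCT and 0.89 ± 0.309 in aCD40 (adjusted p of 1.57e-04 to 0.0412), and the DNBS value of 0.81 did not pass (adjusted p = 0.109). Hif1a lost its TCT call without Rag1-/- control mouse 2 (0.94, adjusted p = 0.0502). Hif1a also lost its aCD40 call without aCD40 mouse 7 (0.60, adjusted p = 0.259), as it did without aCD40 mouse 6 or Rag1-/- control mouse 2 or 3. The counts measure the transcript, and HIF-1 alpha is set mainly by protein stability.

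The prolyl hydroxylases that mark HIF for destruction differed. PHD3 (Egln3, chr12:54178981-54203860) is itself a known HIF target. Egln3 measured 67.7, 62.4 and 89.6 CPM in the Rag1-/- controls, 307, 288 and 263 in TCT and 160.3, 244 and 328 in aCD40 mice. The TRUC mice had Egln3 at 416, 408, 389 and 323 CPM and their Rag2-/- controls at 119, 108 and 156 CPM. Wild-type mice carried Egln3 at 111, 121 and 98.9 CPM, compared with 152, 176 and 199 in DSS, 96.3, 153 and 123 in DNBS and 277, 376, 230.0 and 336 in IL10 mice. All inflamed mice except those of DNBS lay above their controls. Egln3 rose by 1.58 ± 0.212 in TRUC, 0.67 ± 0.217 in DSS, 1.47 ± 0.211 in IL10, 1.96 ± 0.224 in TCT and 1.74 ± 0.223 in aCD40 (adjusted p of 4.33e-07 to 0.0195). Egln3 lost its DSS call without DSS mouse 8 (0.57, adjusted p = 0.0904), as it did without wild-type control mouse 1 or 4. PHD2 (Egln1), the main oxygen sensor, was called in no comparison and ranged from -0.29 in DNBS to 0.10 in TCT.

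Among the hypoxia response genes, Adm and Bnip3 rose in the same 5 models. Adm encodes adrenomedullin, a peptide that widens vessels. Adm stood at 6.90, 7.04 and 6.57 CPM in the Rag2-/- controls and at 44.7, 51.4, 58.1 and 41.9 CPM in the TRUC mice. Adm in the wild-type controls was 6.24, 8.52 and 8.28 CPM, against 16.9, 12.8 and 30.2 in the DSS mice, 6.15, 8.37 and 17.4 in the DNBS mice and 22.2, 45.3, 34.4 and 26.2 in the IL10 mice. For Adm, the Rag1-/- controls gave 4.29, 6.33 and 8.43 CPM, the TCT mice 20.4, 12.8 and 14.6 and the aCD40 mice 9.95, 22.4 and 15.8. All mice of these 5 models lay above their controls. Adm rose by 2.84 ± 0.361 in TRUC, 1.37 ± 0.360 in DSS, 2.06 ± 0.350 in IL10, 1.33 ± 0.367 in TCT and 1.34 ± 0.367 in aCD40 (adjusted p of 3.06e-06 to 0.0116), up to 7.16-fold in TRUC. Adm lost its DSS call without DSS mouse 8 (0.95, adjusted p = 0.0642). Adm also lost its aCD40 call without aCD40 mouse 7 (1.02, adjusted p = 0.0975), as it did without Rag1-/- control mouse 2.

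Bnip3 encodes a receptor for the removal of mitochondria. The wild-type colon contained Bnip3 at 15.5, 13.2 and 12.2 CPM, while DSS mice had 17.3, 23.6 and 27.9, DNBS mice 11.6, 17.9 and 10.1 and IL10 mice 20.6, 28.3, 18.3 and 44.4 CPM. Levels of Bnip3 were 10.97, 13.4 and 11.5 CPM in Rag2-/- controls, with 25.6, 36.7, 27.4 and 27.6 CPM in TRUC colon. In Rag1-/- controls Bnip3 reached 6.00, 6.48 and 7.57 CPM, in TCT mice 24.9, 19.05 and 15.5 and in aCD40 mice 21.9, 19.6 and 16.1. Again no mouse of TRUC, DSS, IL10, TCT or aCD40 overlapped its controls, and DNBS did. Bnip3 rose by 1.29 ± 0.256 in TRUC, 0.75 ± 0.265 in DSS, 1.03 ± 0.253 in IL10, 1.57 ± 0.278 in TCT and 1.52 ± 0.278 in aCD40 (adjusted p of 1.38e-04 to 0.0321). Bnip3 lost its DSS call without DSS mouse 8 (0.58, adjusted p = 0.152), as it did without wild-type control mouse 2 or 4 or DSS mouse 6. A share of 47.2% of its 50-base windows occurs in other transcripts and 22.3% of its exons overlap another gene model, so its counts were in part uncertain. Hilpda, a lipid droplet protein, was higher in TRUC, DSS and IL10 (1.43 ± 0.523 in TRUC, 1.86 ± 0.553 in DSS and 1.54 ± 0.529 in IL10, adjusted p of 0.0119 to 0.0287). In the DSS and IL10 groups 1 mouse each carried most of that rise, 43.2 CPM in DSS mouse 8 and 35.7 in IL10 mouse 4 against 6.70, 5.06 and 4.26 CPM in wild-type mice. Hilpda lost its TRUC call without Rag2-/- control mouse 1 (1.34, adjusted p = 0.0901), as it did without Rag2-/- control mouse 2 or 4 or TRUC mouse 3 or 4. Hilpda also lost its DSS call without DSS mouse 8 (0.51, adjusted p = 0.457), as it did without wild-type control mouse 4. Hilpda also lost its IL10 call without IL10 mouse 4 (0.73, adjusted p = 0.189), as it did without wild-type control mouse 2 or 4.

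The angiogenic factor Vegfa, the best known HIF target, rose in no model. At 96.3, 117, 88.6 and 89.3 CPM in TRUC mice, Vegfa compared with 80.7, 69.1 and 90.04 CPM in their Rag2-/- controls. Among Balb/C mice, Vegfa was at 118, 122 and 98.4 CPM in wild-type controls, 76.5, 101 and 160.4 after DSS, 62.2, 65.6 and 64.1 after DNBS and 54.9, 94.9, 80.9 and 81.5 in the IL10 group. Mice labelled Rag1-/- had Vegfa at 76.2, 76.6 and 81.5 CPM untreated, 132, 85.9 and 90.6 after T cell transfer and 74.4, 85.6 and 91.01 after anti-CD40. All DNBS and all IL10 mice lay below the wild-type controls, DSS mice spread to both sides of them, and TCT mice lay above theirs. Vegfa fell in DNBS (-0.82 ± 0.209, adjusted p = 0.0229) and IL10 (-0.53 ± 0.193, adjusted p = 0.0235). Vegfa lost its DNBS call without wild-type control mouse 2 (-0.76, adjusted p = 0.0913), as it did without wild-type control mouse 1 or DNBS mouse 14 or 16. Vegfa also lost its IL10 call without IL10 mouse 1 (-0.40, adjusted p = 0.0896), as it did without wild-type control mouse 1 or 2. The endothelium markers, 6 genes, summed to 175 to 189 CPM in wild-type mice, 211 to 392 in DNBS and 94.1 to 185 in IL10.

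The remaining members were called seldom or not at all. Car9, a carbonic anhydrase that controls pH, was higher in IL10 (0.91 ± 0.241, adjusted p = 0.00308). P4ha1 and P4ha2, the collagen prolyl hydroxylases, were lower in IL10 (-0.64 and -0.75, adjusted p = 0.011 and 0.0149), with overlap between mice. P4ha1 lost its IL10 call without wild-type control mouse 2 (-0.51, adjusted p = 0.0685). P4ha2 lost its IL10 call without wild-type control mouse 2 (-0.65, adjusted p = 0.0655). Ndrg1 was lower in TCT (-1.14 ± 0.407, adjusted p = 0.037). Ndrg1 lost its TCT call without TCT mouse 5 (-1.05, adjusted p = 0.121), as it did without Rag1-/- control mouse 2 or 3 or TCT mouse 1. Ankrd37 was called in no model against its controls, with an SE of 0.621 to 0.747.

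A single IL10 mouse stood apart from the other 3 in several hypoxia response genes. In mouse 4, Slc16a3 was 455 CPM against 103, 123 and 102 in mice 1, 2 and 3. Ankrd37 was 21.2 CPM against 3.71, 2.70 and 4.03, Hilpda 35.7 CPM against 8.34, 10.5 and 7.97 and Ndrg1 183 CPM against 44.4, 38.6 and 48.4. Car9 was 125 CPM against 55.4, 62.2 and 64.3, and Pfkl 664 CPM against 258, 282 and 249. For these genes mice 1 to 3 lay close together and mouse 4 stood alone. Mouse 4 was not the highest for Hif1a, at 210.4 CPM against 313, 391 and 242, nor for Hk2, Hk3, Adm, Egln3 or Pfkfb3. Its neutrophil marker sum was the lowest of the 4, 268 CPM against 710.2, 1214 and 412. Its epithelial marker sum was the highest, 25902 CPM against 18599.6, 22469 and 18946, and its endothelium sum the lowest, 94.1 CPM against 157, 185 and 181. Its library total was within the range of the group.

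**Figure D5:**
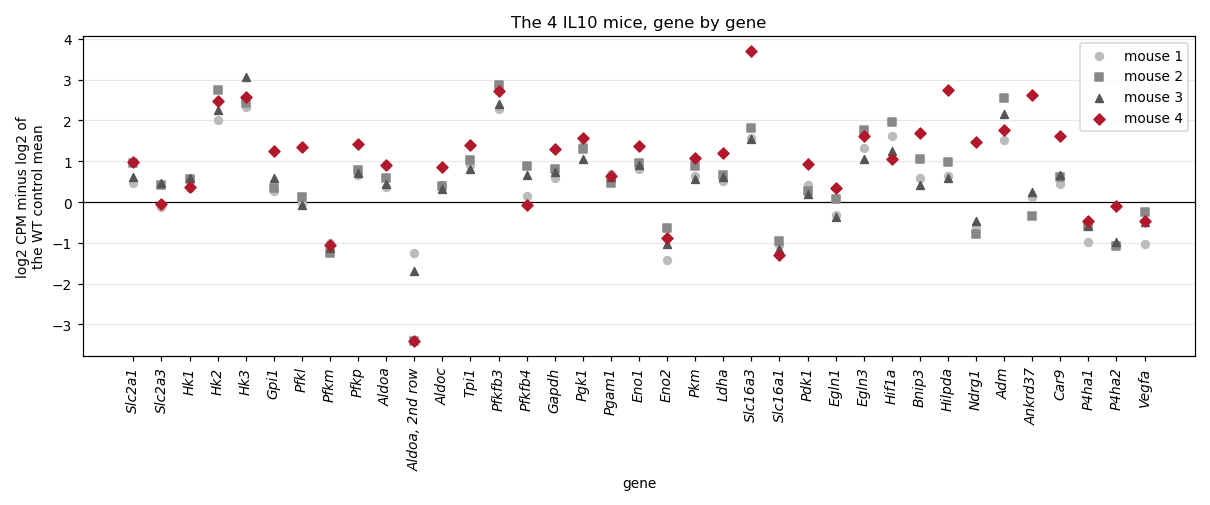
Log2 CPM of each of the 37 gene rows in each of the 4 IL10 mice minus log2 of the wild-type control mean (vertical axis), genes along the horizontal axis in order of role. Mouse 4 (red) stands above the other 3 for Slc16a3, Hilpda, Ndrg1, Ankrd37, Car9 and Pfkl, and below at least 1 of them for Hk2, Pfkfb3, Hif1a and Adm.

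The 6 log2 fold changes were tested against each other for each gene, with the shared controls taken into account. For 31 of the 37 rows they differed at an adjusted p under 0.05, against 60.5% of all genes tested. The test passed for Eno1 (adjusted p = 1.17e-06), Slc16a1 (4.48e-05), Pfkp (3.45e-05), Aldoc (9.24e-06), Eno2 (1.23e-05) and Hk2 (2.69e-04). Rows for which the test did not pass were Hif1a (0.184), Hilpda (0.355), Egln1 (0.363), Ndrg1 (0.0904), Pfkfb4 (0.0739) and Slc2a1 (0.0534), which does not show that the models were alike for them. The range over the models was widest for Slc2a3, from -0.75 to 2.12, Pfkfb3, from 0.96 to 3.85, and Hk2, from 0.39 to 3.22.

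Other genes around the pathway were counted by list. Of all genes tested, 22.4% were higher and 23.4% lower in TRUC, 17.7% and 16.3% in DSS, and 3.95% and 2.21% in DNBS. The shares were 27.2% and 26.1% in IL10, 16.1% and 14% in TCT, and 10.9% and 10.7% in aCD40. The counts of all lists here and below stand beside these shares, and several are near them. Of 18 tested isozymes and enzymes of opposing steps, higher and lower calls numbered 5 and 7 in TRUC, 1 and 8 in DSS, 2 and 0 in DNBS, 7 and 3 in IL10, 3 and 4 in TCT and 4 and 4 in aCD40. The gluconeogenic enzyme Pck1 was lower in all but DNBS, with log2 fold changes of -4.81 in TRUC, -3.17 in DSS, -1.37 in DNBS, -2.65 in IL10, -4.01 in TCT and -2.44 in aCD40. Fbp1, which reverses phosphofructokinase, was lower in 4 models, with -1.35 in TRUC, -2.34 in DSS, -2.01 in IL10 and -1.85 in aCD40. Bpgm was higher in 4 (1.31 in TRUC, 0.77 in DNBS, 1.40 in IL10 and 0.49 in TCT) and Gpd2 in 4 (0.96 in TRUC, 0.62 in IL10, 0.47 in TCT and 0.45 in aCD40). Of the 13 genes of pyruvate entry to mitochondria, calls numbered 4 and 3 in TRUC, 0 and 4 in DSS, 0 and 0 in DNBS, 5 and 3 in IL10, 1 and 3 in TCT and 2 and 2 in aCD40. Pdk2, a kinase that blocks entry, and Pdp2, a phosphatase that opens it, were both lower in the same 5 models, from -2.46 to -1.02 and from -1.53 to -0.87. Pdk3, another kinase, was higher in 4 (0.88 in TRUC, 0.83 in IL10, 0.83 in TCT and 0.76 in aCD40) and Pdhb in 3 (0.35 in TRUC, 0.54 in IL10 and 0.44 in aCD40).

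The pentose phosphate pathway, which branches from glucose 6-phosphate to make NADPH and ribose, was counted in the same way: of its 7 genes, higher and lower calls numbered 7 and 0 in TRUC, 0 and 1 in DSS, 2 and 0 in DNBS, 7 and 0 in IL10, 3 and 0 in TCT and 4 and 0 in aCD40. Pgd was higher by 1.46 in TRUC, 0.57 in DNBS, 1.43 in IL10, 1.05 in TCT and 1.16 in aCD40, and Rpia by 0.36 in TRUC, 0.50 in DNBS, 0.76 in IL10, 0.58 in TCT and 0.48 in aCD40. Of the other HIF subunits and regulators, 9 genes, calls numbered 1 and 0 in TRUC, 0 and 2 in DSS, 0 and 0 in DNBS, 1 and 0 in IL10, 0 and 0 in TCT and 1 and 0 in aCD40; Egln2 was higher in IL10 and aCD40 (0.57 and 0.30), Cited2 lower in DSS (-0.95), Hif1an lower in DSS (-0.37) and Cul2 higher in TRUC (0.60). The list's Epas1, Arnt and Vhl were called in none. Of 24 other tested hypoxia response genes, higher and lower calls numbered 8 and 5 in TRUC, 7 and 2 in DSS, 5 and 1 in DNBS, 11 and 5 in IL10, 4 and 3 in TCT and 3 and 2 in aCD40. In TCT this was 16.7% and 12.5% of the list and in aCD40 12.5% and 8.33%, near the shares of all genes. The shares of the list were 33.3% and 20.8% in TRUC and 45.8% and 20.8% in IL10. They were 29.2% and 8.33% in DSS and 20.8% and 4.17% in DNBS. Heme oxygenase (Hmox1) was higher in all 6 (2.18 in TRUC, 3.33 in DSS, 2.32 in DNBS, 1.44 in IL10, 2.49 in TCT and 1.18 in aCD40), the collagen cross-linker Lox in 5 (1.90 in TRUC, 1.75 in DSS, 2.78 in DNBS, 1.26 in IL10 and 1.93 in TCT) and the disulfide-forming Ero1l in 5 (2.03 in TRUC, 1.07 in DSS, 1.55 in IL10, 1.01 in TCT and 0.82 in aCD40). Vldlr was lower in 4 (-0.66 in TRUC, -0.88 in IL10, -1.54 in TCT and -1.57 in aCD40) and Kdm3a in 4 (-0.35 in TRUC, -0.69 in DSS, -0.58 in DNBS and -0.59 in IL10). Among the other forms of the Pfkfb3 enzyme, Pfkfb1 was higher in TRUC (0.80) and Pfkfb2 lower in DSS and IL10 (-0.50 and -0.46).

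The cell type lists not given above moved as follows, as higher and lower calls. The 10 colon epithelium markers numbered 5 and 0 in TRUC, 1 and 5 in DSS, 1 and 0 in DNBS, 9 and 0 in IL10, 1 and 0 in TCT and 4 and 0 in aCD40, the 10 absorptive colonocyte markers 1 and 7 in TRUC, 2 and 1 in DSS, 1 and 0 in DNBS, 2 and 2 in IL10, 0 and 5 in TCT and 1 and 2 in aCD40, and the 10 monocyte and macrophage markers 9 and 1 in TRUC, 9 and 1 in DSS, 2 and 1 in DNBS, 5 and 2 in IL10, 8 and 1 in TCT and 5 and 0 in aCD40. The 8 T cell markers numbered 4 and 0 in TRUC, 6 and 0 in DSS, 0 and 0 in DNBS, 8 and 0 in IL10, 8 and 0 in TCT and 0 and 0 in aCD40, and the 6 B and plasma cell markers 1 and 0 in TRUC, 3 and 1 in DSS, 0 and 1 in DNBS, 2 and 0 in IL10, 1 and 0 in TCT and 0 and 0 in aCD40. The T cell calls in TRUC were made at low levels. Their sum was 11.1 to 15.03 CPM in TRUC and 4.67 to 8.98 in Rag2-/- controls, where Cd3d and Cd5 had no count. It was 15.2 to 27.6 CPM in wild-type and 151 to 272 in TCT mice. Fibroblast markers, 7 genes, numbered 0 and 1 in TRUC, 2 and 0 in DSS, 3 and 0 in DNBS, 0 and 3 in IL10, 1 and 0 in TCT and 0 and 2 in aCD40, endothelium 0 and 1 in TRUC, 6 and 0 in DSS, 2 and 0 in DNBS, 2 and 2 in IL10, 1 and 0 in TCT and 0 and 1 in aCD40, and the 5 proliferation markers 5 and 0 in TRUC, 1 and 0 in DSS, 2 and 0 in DNBS, 2 and 0 in IL10, 0 and 0 in TCT and 0 and 0 in aCD40. Adipocyte markers, 5 genes, numbered 0 and 5 in TRUC, 1 and 0 in DSS, 0 and 0 in DNBS, 1 and 0 in IL10, 0 and 4 in TCT and 0 and 3 in aCD40, and red cell markers, also 5, 0 and 0 in TRUC, 3 and 0 in DSS, 0 and 0 in DNBS, 0 and 0 in IL10, 0 and 0 in TCT and 0 and 3 in aCD40. Of the 6 tested skeletal muscle markers the calls were 1 and 1 in TRUC, 0 and 0 in DSS, 2 and 0 in DNBS, 0 and 1 in IL10, 0 and 0 in TCT and 1 and 0 in aCD40, and the 1 tested exocrine pancreas marker, Cela1, was lower in all models but DNBS. How far each list accounts for the members was not tested.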

How the data were processed

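Libraries of poly(A) RNA from 29 colons were made with NEBNext reagents, with no step that marks strand described, and read in pairs. Raw gene counts, whole numbers in 1 column for each mouse, were deposited by the authors; the submitters' processing notes name Trimmomatic, HISAT2, HTSeq and build GRCm38, with versions not given in the sources used here. Reads shared by near-identical genes may have been dropped or split; the share of each member's 50-base windows found in other transcripts was computed from GENCODE M21. Of 54532 genes, 20470 had no count, and 92 spike-in rows totalled 0. Symbols came from GENCODE M21, and so did exon lengths, which count all annotated exons of a gene together. Whether a ratio per kilobase lies above or below 1 depends on these lengths, and its change between groups does not.

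The 18616 genes whose counts averaged 3 or more were fitted in 1 edgeR 4.0.16 quasi-likelihood model of the 9 groups with TMM scaling and no covariate, in R 4.3.3; the equality of the 6 log2 fold changes was tested with 5 contrasts. DESeq2 1.42.0, RLE and upper quartile scaling, other filters, the compared groups alone, a threshold of 0.01, other controls, a replicate block and leaving out each mouse were the alternatives. Nothing says that mice of a group were littermates or not, and p-values measure the spread between mice; among 33 same-group pairs none was identical, and the lowest chi-square over its degrees of freedom was 3.65. Scripts were tested on simulated data. Intervals and floors cover counting error only.

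The members and lists were chosen with earlier results of these data known. Given mouse by mouse were members called the same way in at least 4 models, called both ways, or among the 3 with the largest change in a comparison; IL10 mouse 4 and single values named beside other members were chosen after their values were seen. Of each related list at most 5 genes called in the most models were named, leaving out 1 that is not reported here.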

Additional observations from a re-analysis of the deposited data

Results flagged for a closer look

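Among the 2 groups of 4 mice, the 37 rows gave 74 checks for a highest or lowest value beyond the 95% limit of Dixon's test, which chance passes in about 1 of 20 groups; 9 were found, and all were the highest value of IL10 mouse 4. They were Pfkl at 664 CPM, Pfkp at 909, Aldoc at 63.4, Slc16a3 at 455, Hilpda at 35.7, Ndrg1 at 183, Ankrd37 at 21.2, Car9 at 125 and P4ha2 at 11.1 CPM. The genes are not independent of each other, since they come from 1 library.

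The 31 rows whose log2 fold changes differed between the 6 models are given here with the adjusted p of that test. In the set of uptake and hexokinase genes these were Slc2a3 (4.30e-05), Hk1 (0.00587), Hk2 (2.69e-04) and Hk3 (0.0026). In the upper pathway and its regulator these were Gpi1 (1.04e-04), Pfkl (0.0465), Pfkm (0.00937), Pfkp (3.45e-05), Aldoa (1.16e-05), the second Aldoa gene model (0.0176), Aldoc (9.24e-06), Tpi1 (1.35e-05) and Pfkfb3 (0.00297). In the lower pathway these were Gapdh (3.75e-04), Pgk1 (6.43e-04), Pgam1 (7.45e-05), Eno1 (1.17e-06), Eno2 (1.23e-05) and Pkm (0.0011). In the set of lactate and pyruvate genes these were Ldha (6.16e-05), Slc16a3 (0.0352), Slc16a1 (4.48e-05) and Pdk1 (1.49e-04). In the set of oxygen sensing and hypoxia response genes these were Bnip3 (0.00578), Egln3 (8.77e-05), Adm (0.00136), Ankrd37 (0.0313), Car9 (0.0119), P4ha1 (9.09e-04), P4ha2 (0.00111) and Vegfa (0.00334).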

How the results depend on the processing

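Leaving out each mouse in turn gave 16 to 19 higher and 2 to 3 lower members in TRUC, 21 to 24 and 4 to 8 in IL10, 14 to 17 and 2 to 4 in TCT, 9 to 17 and 1 to 3 in aCD40, 6 to 15 and 3 to 5 in DSS, and 0 to 2 and 0 to 3 in DNBS. At an adjusted p under 0.01 there were 7 higher members in DSS and 11 in aCD40, and 4 lower members in IL10, 2 in TCT, 1 in aCD40 and 0 in DNBS. In DNBS, DESeq2 on the 2 groups called 3 higher members, and edgeR on the 2 groups alone 1 higher and 1 lower. TCT against wild-type controls had 2 lower members. Other counts, apart from those with a replicate block, stayed within 1.5 times of those reported under every alternative run, and no called member changed direction. Of 110 calls, DESeq2 lost 1 (Slc2a1 in DSS) and edgeR on the compared groups alone 7; Gpi1 in DSS was lost under RLE scaling and under both other filters, Slc16a1 in aCD40 with no filter (-0.43, adjusted p = 0.0677) and Pdk1 in IL10 with upper quartile scaling (0.32, adjusted p = 0.119). The median of the set was 0.41 in TRUC with upper quartile scaling and 0.57 in TCT without Rag1-/- control mouse 2. Causes of these changes were not tested.

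Mice of the same number did not deviate together (correlations of -0.0518 to 0.0556 between TRUC or IL10 mice and controls of the same number, none over 0.1). The numbers thus gave no sign of pairing, though so few pairs cannot exclude a shared litter or batch. With a replicate block, TRUC had 19 higher and 4 lower members, and IL10 20 and 4; the same mice without the block gave 22 and 5 in IL10. Groups of 3 or 4 mice limit what the tests can show for members with a wide spread between mice.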
